A study of Mus musculus with 12 samples.

Results

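The Hedgehog pathway genes Gli1, Gli2, Gli3, Ptch1, Smo, Hhip, Gas1, Cdon, Boc and Sufu were followed through RNA-seq counts from mouse embryonic cortex. The 10 genes were chosen by symbol as core receptors, transducers and transcription factors of the pathway, each symbol matched 1 Ensembl identifier, and they make up 10 of the 48709 genes listed in every library. All 10 passed the filter on low counts, which kept 16511 genes. The study holds 12 libraries of total RNA from the cortex of C57BL/6J embryos at E15.5 (E, embryonic day): 4 labelled Control, 4 labelled BAF155cKO and 4 labelled Pax6cKO, where cKO stands for conditional knockout. BAF155, encoded by Smarcc1, is a scaffold protein of BAF chromatin remodelling complexes, and Pax6 is a transcription factor of cortical progenitors. The labels used here give neither the Cre line, nor the alleles of the controls, nor the deleted stretch of each gene, nor whether each library was made from another embryo. Every p-value therefore measures only how these libraries vary, which may in part be technical variation. By Xist and Y-linked counts the controls held both sexes, so they did not all come from the same embryo.

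Hedgehog ligands bind the receptor Ptch1, which without ligand holds the membrane protein Smo inactive. Gas1, Cdon and Boc are cell surface co-receptors that help present the ligand to Ptch1, and Hhip binds and sequesters it. Active Smo changes how Gli proteins are processed at the primary cilium: Gli2 acts mostly as an activator, Gli3 mostly as a repressor, Sufu holds both back, and Gli1, Ptch1 and Hhip are classical target genes whose transcription rises with signalling. In the forebrain the ligand Shh comes from ventral territories, and the repressor form of Gli3 is needed in the dorsal telencephalon, from which the cortex develops.

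On mm10, with positions from GENCODE M21, the co-receptor genes are Gas1 (ENSMUSG00000052957) at chr13:60174405-60177365 on the minus strand, Cdon (ENSMUSG00000038119) at chr9:35421128-35507652 on the plus strand and Boc (ENSMUSG00000022687) at chr16:44485049-44558897 on the minus strand. The receptor gene is Ptch1 (ENSMUSG00000021466) at chr13:63508328-63573598 on the minus strand. Hhip (ENSMUSG00000064325), whose protein binds the ligand, lies at chr8:79965851-80058006 on the minus strand. The transducers are Smo (ENSMUSG00000001761) at chr6:29735503-29761365 on the plus strand and Sufu (ENSMUSG00000025231) at chr19:46396896-46488804 on the plus strand. The Gli genes are Gli1 (ENSMUSG00000025407) at chr10:127329882-127341974 on the minus strand, Gli2 (ENSMUSG00000048402) at chr1:118834132-119053619 on the minus strand and Gli3 (ENSMUSG00000021318) at chr13:15463235-15730026 on the plus strand. All are protein-coding, and each count covers a whole gene.

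The libraries held 15.2 to 32.05 M counted reads. Smarcc1 was at 122, 133, 139 and 115 CPM (counts per M reads) in BAF155cKO libraries 1 to 4, below the control range of 219.7 to 360.6 CPM. Pax6 was at 379.9 to 399.3 CPM in the libraries labelled Pax6cKO, above the control range of 82 to 124.7 CPM, which goes against the label, and they are called the libraries labelled Pax6cKO throughout. Counts over a whole gene can include reads from outside a deletion, and where the deletion lies is not given, so the Pax6 counts do not settle the label. Pax6 was also higher in the BAF155cKO, at 273 to 369 CPM. Smarcc1 was also lower in the libraries labelled Pax6cKO, at 177.5 to 193.8 CPM. By Xist and Y-linked counts the 4 BAF155cKO libraries and controls 3 and 4 were female and the 4 libraries labelled Pax6cKO and controls 1 and 2 were male. By the lane numbers in the deposited file names, lane 8 held all controls and no other library, lane 1 BAF155cKO libraries 1 and 2 and all labelled Pax6cKO, and lane 3 BAF155cKO libraries 3 and 4, so lane and group cannot be told apart in a comparison with control. Mitochondrial genes took 2.27%, 2.18%, 1.21% and 1.38% of reads in controls 1 to 4, 2.92%, 1.57%, 2.09% and 3.27% in the BAF155cKO libraries and 2.04% to 2.91% in those labelled Pax6cKO. Controls 3 and 4, the female ones, thus also had the lowest shares among the controls. A fit with controls of the same sex alone therefore also picks controls by this share, and sex and share cannot be told apart there.

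The promoter sequences of Gli2, Gli3 and Ptch1 are shown because the first pair are paralogs that were low together in the libraries labelled Pax6cKO, while Ptch1, a target of Gli proteins, was not called in either comparison with control. The sequences come from RefSeq on GRCm38.p6 and cover the 250 bases before the annotated start, 5′ to 3′ on the strand of the gene, with each CG dinucleotide in capitals. They lie at chr1:119053620-119053869 (minus strand), chr13:15463473-15463722 (plus strand) and chr13:63565736-63565985 (minus strand). In GENCODE M21 the first lies just outside Gli2, and the others lie inside the spans of Gli3 and Ptch1. Exons of Gm6556, a gene on the other strand, share 188 bases with exons of Gli3.
Gli2: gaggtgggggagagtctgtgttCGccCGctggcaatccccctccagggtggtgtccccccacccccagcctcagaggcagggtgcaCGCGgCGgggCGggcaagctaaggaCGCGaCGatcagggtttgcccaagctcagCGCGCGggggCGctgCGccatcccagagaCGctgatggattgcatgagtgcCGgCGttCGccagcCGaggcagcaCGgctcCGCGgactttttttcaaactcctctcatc
Gli3: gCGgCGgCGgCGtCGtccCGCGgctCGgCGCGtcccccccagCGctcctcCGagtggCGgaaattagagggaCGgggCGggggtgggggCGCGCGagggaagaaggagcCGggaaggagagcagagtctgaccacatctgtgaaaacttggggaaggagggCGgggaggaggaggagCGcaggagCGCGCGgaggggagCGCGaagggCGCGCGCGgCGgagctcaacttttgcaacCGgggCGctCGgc
Ptch1: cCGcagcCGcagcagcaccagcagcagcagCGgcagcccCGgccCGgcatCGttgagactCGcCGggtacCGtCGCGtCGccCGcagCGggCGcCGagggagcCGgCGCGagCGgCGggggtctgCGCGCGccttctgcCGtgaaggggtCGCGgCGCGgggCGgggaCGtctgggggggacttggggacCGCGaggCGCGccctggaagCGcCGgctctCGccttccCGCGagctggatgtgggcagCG
The Gli2 stretch held 22 CG dinucleotides, the Gli3 stretch 34 and the Ptch1 stretch 41, against a median of 6 over all 32851 promoter windows in the table. Of the 10 genes, 8 matched a window, and their GC content ran from 42.8% to 78.4%, beside a median of 52.4%. The lowest value is that of the Cdon stretch at chr9:35451826-35452075, which lies inside the gene, away from its GENCODE start. The end of the Gas1 window was in no GENCODE M21 transcript of Gas1. The 8 windows are therefore not all at the GENCODE start of their gene. The consensus motif of Gli proteins, GACCACCCA on one strand or TGGGTGGTC on the other, was found in 0 of these 8 windows of 300 bases (250 before and 50 after the start) and in 83 of all 32851 windows, which is 0.253%. A match is a run of letters and not a measured binding site, and no match says only that the motif is not in these windows.

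To compare levels between genes, CPM values were divided by the length of all annotated exons in kb. In control the co-receptors Cdon and Gas1 stood highest, at 31.3 ± 4.6 and 21.8 ± 4 CPM per kb (SD, n = 4 libraries here and for all means). Boc followed at 15.1 ± 2.48, Smo at 11 ± 1.5, Sufu at 8.97 ± 1.72, Gli3 at 8.8 ± 2.8, Gli2 at 5.93 ± 1.83, Ptch1 at 3.5 ± 0.405, Gli1 at 1.86 ± 0.313 and Hhip at 0.304 ± 0.0566 CPM per kb. The libraries of neighbours in this order did not overlap for Cdon and Gas1, Boc and Smo, Ptch1 and Gli1, and Gli1 and Hhip, and they overlapped for the other neighbouring pairs. Cdon remained the highest and Hhip the lowest in both other groups. Smo ranked behind all 3 co-receptors in control and next after Cdon in both the BAF155cKO (11.2 ± 1.24 CPM per kb) and the libraries labelled Pax6cKO (9.24 ± 0.393), where Gas1 had fallen to 8.45 ± 1.1 and 8.23 ± 0.561 CPM per kb. The libraries of Smo overlapped those of the next gene in both groups, Boc in the BAF155cKO and Gas1 in those labelled Pax6cKO. In the same groups Gli2 lay behind Ptch1, at 3.07 ± 0.729 and 2.41 ± 0.155 against 3.43 ± 0.199 and 2.95 ± 0.294 CPM per kb, although the libraries of Ptch1 and Gli2 overlapped in the BAF155cKO. The number of reads behind these values ran from 23 to 6042 per gene and library, with Hhip at 23 to 72 reads.

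**Figure D1:**
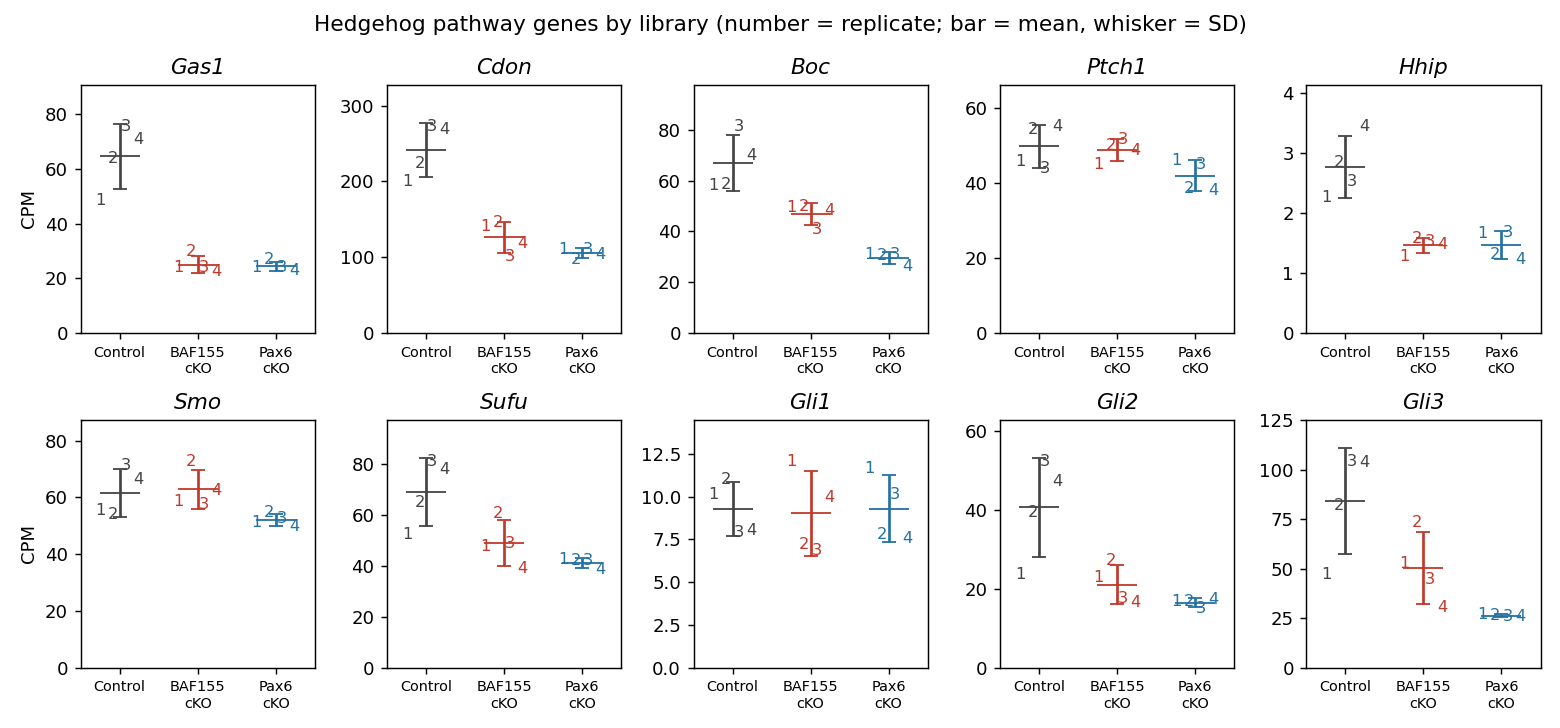
Each panel plots the CPM of 1 gene on a linear axis from 0 in the 3 groups, with the replicate number printed at each library's value, a bar for the mean and whiskers for the SD. Gas1, Cdon and Hhip lie lower in every BAF155cKO library and every library labelled Pax6cKO than in any control, whereas the Gli1 libraries of all 3 groups interleave.

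The first comparison named in the series design, BAF155cKO with control, asks which transcripts differ when BAF155 is deleted in the cortex. All 3 co-receptors, the ligand-binding protein Hhip, the inhibitor Sufu and the factor Gli2 were lower, and Ptch1, Smo, Gli1 and Gli3 were not called. Counted by gene, 6 of the 10 fell and 0 rose, where 7.56% of all tested genes fell and 6.04% rose. The median log2 fold change was −0.62 over the 10 genes and 0.01 over all genes. With only the BAF155cKO libraries of lane 1, 2 of the 10 fell, where 2.47% of all genes fell, and with only those of lane 3, 7 fell, where 7.11% did. In bulk tissue, fewer cells that express a gene and less of its RNA per cell cannot be told apart.

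The co-receptor Gas1, a membrane-anchored protein that binds Shh, was at 48.3, 63.9, 75.5 and 70.5 CPM in controls 1 to 4 and at 23.8, 29.8, 24 and 22.5 CPM in BAF155cKO libraries 1 to 4. Every BAF155cKO library lay below every control. The level was 2.57-fold lower, and the log2 fold change was −1.36 (adjusted p = 4.81e-06, SE 0.13). Cdon, an immunoglobulin-superfamily co-receptor, was at 199.7, 223.8, 272.7 and 268.7 CPM in control and at 140.4, 145.2, 101 and 117.8 CPM in the BAF155cKO. The 2 groups did not overlap, and the log2 fold change was −0.93 (adjusted p = 0.000146, SE 0.12). Boc, the close relative of Cdon, was at 58.3, 58.4, 81.4 and 69.8 CPM in control and at 49.4, 49.7, 40.6 and 48.3 CPM in the BAF155cKO. These libraries were also apart, by a smaller difference of −0.51 on the log2 scale (adjusted p = 0.00822, SE 0.11). With the lane 1 libraries alone, Boc was not called (log2 fold change −0.42, adjusted p = 0.102).

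Hhip had the fewest reads of the 10 genes. Its levels were 2.25, 2.84, 2.51 and 3.44 CPM in control and 1.28, 1.57, 1.52 and 1.47 CPM in the BAF155cKO, again without overlap. The log2 fold change was −0.91 (adjusted p = 0.00627, SE 0.19), and −0.93 (adjusted p = 0.052) with the lane 1 libraries alone. Ptch1, the receptor and a target gene like Hhip, was at 45.7, 54.2, 43.9 and 55 CPM in control and at 44.9, 49.8, 51.5 and 48.7 CPM in the BAF155cKO. The groups overlapped throughout, with a log2 fold change of −0.03 whose 95% interval ran from −0.22 to 0.16 (adjusted p = 0.851). Smo, the transducer that Ptch1 holds inactive, was at 55.3, 53.9, 71.1 and 66.5 CPM in control and at 58.7, 72.8, 57.5 and 62.4 CPM in the BAF155cKO. Its log2 fold change was 0.03 (95% interval −0.17 to 0.23, adjusted p = 0.857), and the sign turned when only controls 3 and 4 were used (−0.15, adjusted p = 0.312).

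Sufu, which restrains Gli proteins in the cytoplasm, was at 52.3, 64.7, 81.1 and 78 CPM in control and at 47.8, 60.6, 48.6 and 38.9 CPM in the BAF155cKO. BAF155cKO library 2 lay above control 1, so the groups overlapped. The log2 fold change was −0.49 (adjusted p = 0.0298, SE 0.14), and the call was lost without BAF155cKO library 1, 3 or 4 or control 3 or 4 (adjusted p = 0.0553 to 0.1), with lane 1 alone (adjusted p = 0.241) and in a fit of the 8 compared libraries (adjusted p = 0.0823).

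Among the Gli transcription factors, Gli2 was at 23.6, 39.5, 52.5 and 47.3 CPM in controls 1 to 4 and at 22.9, 27.3, 17.5 and 16.6 CPM in BAF155cKO libraries 1 to 4. Control 1 stood far below the other controls and inside the BAF155cKO range. The log2 fold change was −0.94 (adjusted p = 0.00809, SE 0.20), and −0.68 (adjusted p = 0.132) with the lane 1 libraries alone. Gli3 was at 47.2, 81.8, 104.5 and 103.8 CPM in control and at 52.8, 73.7, 44.7 and 30.7 CPM in the BAF155cKO. Its control 1 was again the lowest control, and BAF155cKO libraries 1 and 2 lay above it. The log2 fold change of −0.73 (SE 0.25) did not pass the test (adjusted p = 0.0627). It was called without control 1 (−0.94, adjusted p = 0.00887), without BAF155cKO library 2 (−0.98, adjusted p = 0.0152), with lane 3 alone (−1.17, adjusted p = 0.0186) and against controls 3 and 4, of the same sex (−1.05, adjusted p = 0.0105). Gli1 was at 10.2, 11, 7.88 and 8.03 CPM in control and at 12.1, 7.21, 6.85 and 9.96 CPM in the BAF155cKO, with complete overlap and a log2 fold change of −0.04 (95% interval −0.42 to 0.34, adjusted p = 0.907).

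Controls 3 and 4, with the lowest mitochondrial shares, held the highest Gli3 levels, and so did BAF155cKO library 2 in its group. BAF155cKO library 3 had a lower share and a lower Gli3 level than library 1. The libraries labelled Pax6cKO had shares of 2.04% to 2.91% and nearly equal Gli3 levels of 25.8 to 27.1 CPM. The part of this share in the results was not tested. Radial glia, the progenitors in which Gli2 and Gli3 are expressed, were followed with 16 marker genes. Of these 10 fell and 0 rose in the BAF155cKO, and their summed level was 2726 to 3008 CPM against 3854 to 4032 CPM in control. Slc1a3, a glutamate transporter of radial glia, fell by 1.01 on the log2 scale, whereas the progenitor factor Sox2 had a log2 fold change of 0.14 (adjusted p = 0.615). Markers of the ventral telencephalon summed to 1219 to 1356 CPM against 607 to 897 CPM, with 8 of 14 higher and 0 lower. The part of either list in the results for the Hedgehog genes was not tested.

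**Figure D2:**
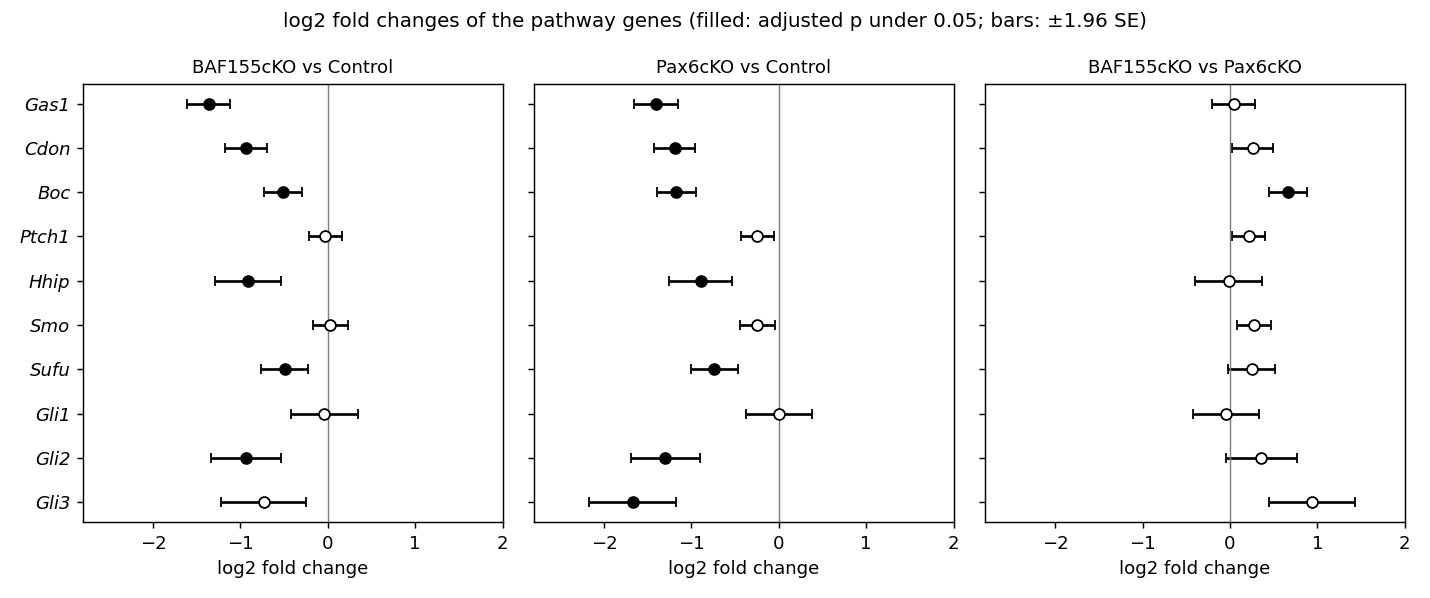
The 3 panels plot the log2 fold change of each gene for the comparisons named above them, as points with bars for the 95% interval, filled where the adjusted p was under 0.05. Gli1 sits near 0 in all 3 panels, and Gas1 sits near −1.4 in both comparisons with control.

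The second comparison named in the design, the libraries labelled Pax6cKO with control, puts the same question for Pax6. The co-receptors, Hhip, Sufu, Gli2 and Gli3 were lower, and Ptch1, Smo and Gli1 were not called. The same controls serve both comparisons, so the 2 sets of values are not independent. Of the 10 genes 7 fell and 0 rose, where 18.9% of all tested genes fell and 16.6% rose. All 4 libraries labelled Pax6cKO lay below all 4 controls for these 7 genes, a separation in that direction seen for 18.3% of all genes. In the BAF155cKO it was seen for 4 of the 10, where the share over all genes was 7.95%. The median log2 fold change was −1.03 over the 10 genes and 0.02 over all genes. Against controls 1 and 2 alone, which were male like these libraries, 7 fell as well, where 4.9% of all genes in that fit fell.

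Gli3 showed the largest fall among the 10, from 47.2 to 104.5 CPM in the controls to 27.1, 26.6, 26.1 and 25.8 CPM in libraries 1 to 4 labelled Pax6cKO. These 4 libraries were nearly equal, and the lowest control lay above them all. The log2 fold change was −1.67 (adjusted p = 0.00043, SE 0.25), and −1.29 (adjusted p = 0.0222) against the 2 male controls. Gli2 was at 16.9, 16.9, 15 and 17.4 CPM, below the control minimum of 23.6 CPM, with a log2 fold change of −1.30 (adjusted p = 0.000428, SE 0.20). Gli1 was at 11.7, 7.8, 10.1 and 7.55 CPM, on both sides of the control range of 7.88 to 11 CPM. Its log2 fold change was 0.00 (95% interval −0.37 to 0.38, adjusted p = 0.991), and its sign depended on the setting.

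Of the co-receptors, Gas1 was at 24, 26.7, 24.1 and 22.8 CPM in the libraries labelled Pax6cKO, and its log2 fold change was −1.41 (adjusted p = 2.25e-06, SE 0.13). Cdon was at 110.4, 96.9, 110.7 and 104 CPM, with a log2 fold change of −1.19 (adjusted p = 8.39e-06, SE 0.12). Boc was at 31.1, 30.5, 31.1 and 26 CPM, with a log2 fold change of −1.17 (adjusted p = 4.38e-06, SE 0.11). All 3 lay below every control, their fitted group levels were 2.65-, 2.29- and 2.26-fold lower, and each remained called against the male controls, with log2 fold changes of −1.20, −1.01 and −0.98 in the same order.

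Hhip was at 1.66, 1.3, 1.68 and 1.22 CPM, with a log2 fold change of −0.90 (adjusted p = 0.00262, SE 0.19). Sufu was at 42.5, 42.3, 42 and 38.4 CPM, with a log2 fold change of −0.74 (adjusted p = 0.00134, SE 0.14). For both genes these libraries lay below all controls. Ptch1 and Smo did not pass the test. Ptch1 was at 46, 38.6, 44.9 and 38 CPM, overlapping the controls, with a log2 fold change of −0.25 (95% interval −0.43 to −0.06, adjusted p = 0.0579). DESeq2 called it (adjusted p = 0.0403), as did the fits without control 1, without control 3 and without library 1 labelled Pax6cKO. Smo was at 51, 54.8, 52.5 and 49.6 CPM, with a log2 fold change of −0.25 (95% interval −0.44 to −0.05, adjusted p = 0.0691), and −0.07 (adjusted p = 0.712) against the male controls. It was called without control 1, without control 2 and in the fit of the 8 compared libraries.

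In these libraries 11 of the 16 radial glia markers fell and 3 rose, and their summed level was 3031 to 3238 CPM against 3854 to 4032 CPM in control. Ventral telencephalic markers summed to 1446 to 1572 CPM, with 10 of 14 higher. Ttr, a choroid plexus transcript, was at 12.9, 318.1, 91.2 and 192.7 CPM in libraries 1 to 4 labelled Pax6cKO and at 9.94 to 25.8 CPM in control. Of the 9 tested genes of its list, on the cortical hem and choroid plexus, 1 rose and 2 fell in the libraries labelled Pax6cKO. The collagen gene Col1a1, a marker of meningeal fibroblasts, stayed between 0.381 and 1.32 CPM in all 12 libraries. The meningeal list had 1 gene higher and 1 lower among 7 tested in each comparison with control, with log2 fold changes of 1.09 and 0.72 for Dcn and −1.26 and −0.32 for Cxcl12, and its sum was at 31 to 32.9 CPM in the BAF155cKO, 44.4 to 46.1 CPM in the libraries labelled Pax6cKO and 43.6 to 55.1 CPM in control. Basal progenitor markers summed to 638.4 to 977.8 CPM in control, 390.1 to 573.9 CPM in the BAF155cKO (6 of 10 lower) and 354.9 to 389.5 CPM in the libraries labelled Pax6cKO (8 of 10 lower). Thalamic and hypothalamic markers summed to 65.3 to 102.5, 112.5 to 173.1 and 115.8 to 128.7 CPM in the same order, with 4 and 2 of 7 tested genes higher and 1 lower in each. Projection neuron markers summed to 5930 to 7031, 4244 to 5598 and 4673 to 5436 CPM, with 5 and 7 of 10 lower, and erythroid genes to 269.2 to 371.1, 339.4 to 660.8 and 498.2 to 556.4 CPM, with 1 and 2 of 7 higher. Alb, the albumin gene of the liver, was at 0.621, 1.11, 25.9 and 156.5 CPM in BAF155cKO libraries 1 to 4, and below 1 CPM in every control and every library labelled Pax6cKO. The part of these lists in the results was not tested.

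The direct contrast of the BAF155cKO with the libraries labelled Pax6cKO tests whether a gene differed between them. All BAF155cKO libraries were female and all those labelled Pax6cKO male. Sex and group therefore cannot be told apart in this contrast, here or for the genes below. Boc was the only one of the 10 called in it. It was 1.58-fold higher in the BAF155cKO, at 40.6 to 49.7 CPM against 26 to 31.1 CPM, without overlap (log2 fold change 0.66, SE 0.11, adjusted p = 0.00399). With the BAF155cKO libraries of lane 3 alone it was not called (log2 fold change 0.59, adjusted p = 0.058). Over all genes, 2.3% were called higher in the BAF155cKO. Gli3 was higher in every BAF155cKO library than in any labelled Pax6cKO, with a log2 fold change of 0.94 (SE 0.25) that missed the threshold (adjusted p = 0.0507). DESeq2 (adjusted p = 0.0252), RLE scaling (0.0496), the stricter filter (0.0394), the fit of the 8 compared libraries (0.0149), lane 1 alone (0.0164) and the fit without BAF155cKO library 4 (0.0212) each called it. For Gas1 the difference was 0.04 on the log2 scale (95% interval −0.21 to 0.29, adjusted p = 0.887) and for Hhip −0.02 (−0.40 to 0.37, adjusted p = 0.976). Gli1 had −0.04 (−0.42 to 0.34, adjusted p = 0.931), Ptch1 0.22 (0.03 to 0.41, adjusted p = 0.207) and Smo 0.28 (0.08 to 0.47, adjusted p = 0.132), the last with all BAF155cKO libraries above. Gli2 had 0.36 (−0.04 to 0.76, adjusted p = 0.328), Cdon 0.26 (0.02 to 0.50, adjusted p = 0.23) and Sufu 0.25 (−0.02 to 0.52, adjusted p = 0.309).

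Ratios within a library remove what scales both genes alike. The pairs below were picked after the levels had been seen, so they are given without a test, as ratios of CPM per kb. The ratio of Gli3 to Gli2 was 1.43, 1.48, 1.43 and 1.57 in controls 1 to 4, although their Gli3 levels differed by more than 2-fold. It was 1.65, 1.93, 1.83 and 1.33 in the BAF155cKO and 1.15, 1.13, 1.25 and 1.06 in the libraries labelled Pax6cKO. The latter were all below every other library. The ratio of Boc to Cdon was 0.506, 0.452, 0.518 and 0.45 in control, 0.609, 0.593, 0.697 and 0.711 in the BAF155cKO and 0.488, 0.546, 0.486 and 0.434 in the libraries labelled Pax6cKO. Here the BAF155cKO stood above the libraries of both other groups. Gas1 to Cdon was 0.63 to 0.744 in control, 0.442 to 0.618 in the BAF155cKO and 0.565 to 0.718 in the libraries labelled Pax6cKO, and Ptch1 to Smo overlapped across all 3 groups, between 0.244 and 0.399.

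**Figure D3:**
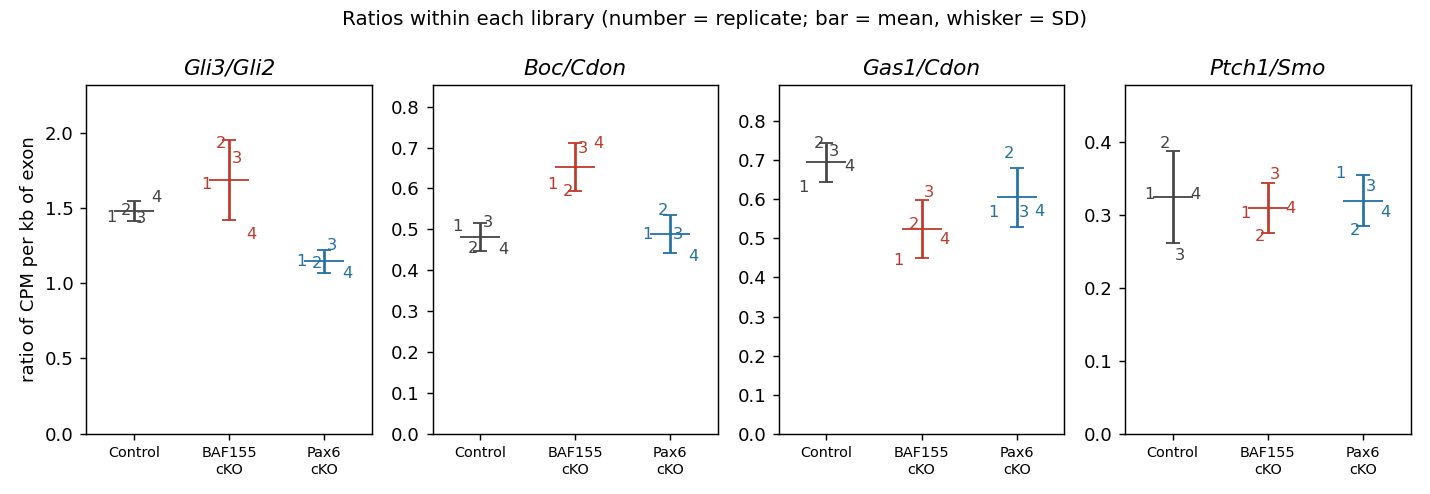
The 4 panels plot ratios of length-scaled levels (CPM per kb of exon, linear axes from 0) in each library, with replicate numbers at the values, a bar for the mean and whiskers for the SD. Gli3 to Gli2 is lowest in the libraries labelled Pax6cKO, at 1.06 to 1.25, and Boc to Cdon is highest in the BAF155cKO, at 0.593 to 0.711.

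Transcripts of the ligands themselves were scarce. Shh had 4 to 34 reads per library, at 0.165, 0.237, 0.677 and 1.62 CPM in control, 0.155, 0.75, 0.634 and 0.638 CPM in the BAF155cKO and 0.989, 0.244, 0.914 and 0.568 CPM in the libraries labelled Pax6cKO. It varied more among the controls alone than between the group means, and its log2 fold changes of −0.28 and 0.10 carried standard errors of 0.64 and 0.59 (adjusted p = 0.778 and 0.916). Exons of antisense transcripts overlap Shh, and the library kit does not mark strand. Ihh had 2 to 7 reads and Dhh 0 to 10, and neither passed the filter on low counts. Nkx2-1, a factor of the ventral territory where Shh is made, ranged from 0.532 to 15.2 CPM among the controls and overlapped between all groups.

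Another 60 genes of the pathway and of related families, held in 5 lists, passed the filter. In the BAF155cKO 3 fell and 1 rose, all among response genes, and in the libraries labelled Pax6cKO 21 fell and 2 rose. The background shares are those given above, 7.56% and 6.04% for the first and 18.9% and 16.6% for the second. In the BAF155cKO 14 of the 60 (23.3%) had an unadjusted p under 0.05, against 32.8% of all genes, and DESeq2 called 6, against 17.6% of all genes. The median log2 fold change of these genes was −0.07 and −0.14. With controls of matching sex only, the counts became 11 lower and 1 higher in the BAF155cKO and 4 lower and 2 higher in the libraries labelled Pax6cKO, where 14.5% and 4.9% of all genes in those fits were lower. The 4 lower genes were Scube1, Gpc6, Sfrp1 and Glis3 (adjusted p = 0.000396, 0.00171, 0.000426 and 0.00211). In the direct contrast, 6 of the 60 were higher in the BAF155cKO than in the libraries labelled Pax6cKO and 0 were lower. Over all 16511 genes, 379 (2.3%) were higher there and 332 lower. With lane 3 alone 2 of the wider lists were higher, where 0.841% of all genes in that fit were.

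Of the 7 tested genes for ligands, their release and modification, 0 were called in the BAF155cKO, where the most abundant were Disp2 (log2 fold change 0.15, adjusted p = 0.228) and Scube1 (−0.12, adjusted p = 0.457). In the libraries labelled Pax6cKO Scube1, a secreted protein related to the Scube2 that carries ligand away from cells, fell from 89.5 to 119.5 CPM to 58.8 to 63.7 CPM (log2 fold change −0.80, SE 0.11, adjusted p = 0.000116). Disp2, a relative of the ligand exporter Disp1, fell by 0.28 (adjusted p = 0.0212), a call lost without control 3 or 4 or library 4 labelled Pax6cKO and against the male controls (adjusted p = 0.0602, 0.0783, 0.059 and 0.284). Both were higher in the BAF155cKO than in the libraries labelled Pax6cKO, Scube1 by 0.68 (adjusted p = 0.00254) and Disp2 by 0.43 (adjusted p = 0.0108, and 0.0838 with lane 3 alone).

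Of 5 further receptor genes, 0 were called in the BAF155cKO, and 3 fell in the libraries labelled Pax6cKO. Gpc6, a glypican of the cell surface, was at 20.7 to 26.8 CPM in control and 11.5 to 12.8 CPM in those libraries (log2 fold change −0.98, SE 0.12, adjusted p = 5.2e-05). In the BAF155cKO Gpc6 had −0.16 (adjusted p = 0.342), and the direct contrast differed by 0.81 (adjusted p = 0.002). Lrp2, an endocytic receptor for Shh in the forebrain, fell by 0.48 (adjusted p = 0.0369), and Gpc3 by 0.58 (adjusted p = 0.0433). The calls of Lrp2 and Gpc3 were lost against the male controls (adjusted p = 0.315 and 0.722), in most fits that left out 1 library (highest adjusted p = 0.101 and 0.194) and with the replicate number as a block (0.0593 and 0.0562). Lrp2 was higher in the BAF155cKO than in the libraries labelled Pax6cKO by 0.77 (adjusted p = 0.0159), a call lost with lane 3 alone (0.0977) and without BAF155cKO library 2 or library 2 or 4 labelled Pax6cKO (0.0501 to 0.0601).

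Of 27 genes of signal transduction, the cilium and Gli processing, 0 were called in the BAF155cKO, where the most abundant were Prkar1a (log2 fold change −0.14, adjusted p = 0.342) and Csnk1a1 (−0.03, adjusted p = 0.83), and 11 fell with 0 rising in the libraries labelled Pax6cKO. The smallest adjusted p belonged to Gpr161, a ciliary receptor that restrains the pathway (log2 fold change −0.40, adjusted p = 0.00695), to the ciliary protein gene Evc2 (−0.47, adjusted p = 0.00773) and to the kinase gene Gsk3b (−0.54, adjusted p = 0.00801). Over all tested genes 18.9% fell in this comparison. Against the male controls none of the 11 was called lower, where 4.9% of all genes in that fit were. For Gpr161, Evc2 and Gsk3b the adjusted p was then 0.181, 0.202 and 0.19. Gpr161 was higher in the BAF155cKO than in the libraries labelled Pax6cKO by 0.38 (adjusted p = 0.0411), a call lost with the replicate block (adjusted p = 0.0629) and in several fits without 1 library (up to 0.123).

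Of 14 tested response genes, 1 rose and 3 fell in the BAF155cKO, and 1 rose and 4 fell in the libraries labelled Pax6cKO. Olig2, a ventral progenitor and oligodendrocyte lineage factor induced by Hedgehog signalling in the neural tube, rose in both, by 0.94 (adjusted p = 0.00174, SE 0.17) and 0.72 (adjusted p = 0.00463, SE 0.17). Of 5 oligodendrocyte precursor markers, Olig2 among them, 2 rose and 2 fell in the BAF155cKO. In the libraries labelled Pax6cKO 2 of these markers rose and 1 fell. Sfrp1, a secreted Wnt antagonist, fell in both, by 0.62 (adjusted p = 0.000644) and 0.89 (adjusted p = 1.42e-05). Bcl2, an inhibitor of apoptosis, fell by 0.63 (adjusted p = 0.0215) and 0.81 (adjusted p = 0.00229), and Mycn, a growth-promoting transcription factor, by 0.50 (adjusted p = 0.0189) and 0.40 (adjusted p = 0.0237). Both calls in the BAF155cKO were lost without BAF155cKO library 1 or 4 or control 3 or 4 (adjusted p = 0.0508 to 0.0763). Over all lists of the wider pathway, 3 genes were called lower in the BAF155cKO. This became 1 with lane 1 alone and 2 with the 8 compared libraries. Ccnd1, the G1 cyclin, fell by 0.67 (adjusted p = 0.00307) in the libraries labelled Pax6cKO and had −0.13 (adjusted p = 0.549) in the BAF155cKO. The direct contrast of 0.54 for Ccnd1 (adjusted p = 0.0426) was lost in most fits without 1 library (up to 0.121) and with the replicate block (0.0702). Bcl2 (adjusted p = 0.0676), Ccnd1 (0.0759) and Mycn were not called in the libraries labelled Pax6cKO against the male controls. The ventral response genes Nkx2-2, Nkx6-2, Foxf1, Foxa2 and Hand2 did not pass the filter, and Foxa2, a floor plate marker, had 0 reads in all 12 libraries.

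Zic and Glis genes encode zinc finger factors related to the Gli family. Of these 8 genes 0 were called in the BAF155cKO, where Zic1 and Zic4 had the highest levels (log2 fold changes 0.23 and 0.39, adjusted p = 0.579 and 0.642). In the libraries labelled Pax6cKO Glis3 fell by 1.07 (adjusted p = 0.00304, SE 0.23). In the direct contrast Zic1 and Zic4 had −0.20 and 0.00 (adjusted p = 0.732 and 1).

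**Figure D4:**
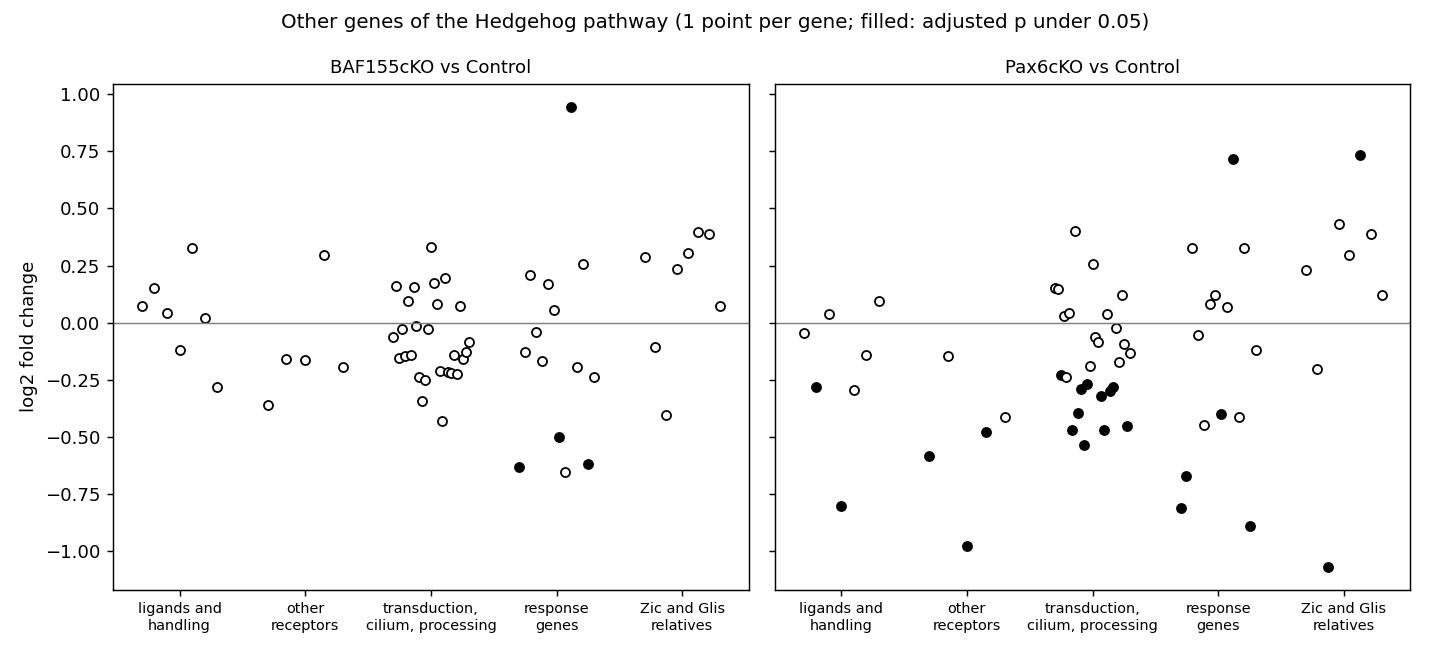
Each point is the log2 fold change of 1 gene of the 5 lists named on the horizontal axis, against control, filled where the adjusted p was under 0.05. In the left panel 4 points are filled, and in the right panel the 11 filled points of the transduction list all lie below 0. None of these 11 was called lower against the male controls alone.

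The genes whose levels over the 12 libraries lay closest to each Gli gene were ranked by the root mean square difference of log2 CPM, each gene taken from its own mean, among 11059 other genes with a mean of at least 5 CPM. This ranking is a description. Gli3 was closest to Nr2e1, an orphan nuclear receptor of forebrain progenitors (difference 0.202, where the median over all genes was 0.743), then to Spata13 (0.209) and Tcf7l1 (0.221), a repressor at Wnt target genes. Nr2e1 had log2 fold changes of −0.71 in the BAF155cKO and −1.39 in the libraries labelled Pax6cKO. Gli2 was closest to Spata13 (0.13, median 0.595), Creb5 (0.137) and Fam53b (0.16). Gli1 was closest to Plscr3 (0.11, median 0.334), Zfp783 (0.119) and Pxdn (0.123), none of which had a log2 fold change beyond 0.05 in either comparison with control.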

How the data were processed

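The authors deposited 1 file of raw counts per library, whole reads per Ensembl gene with no header and no normalization. Per the submitters' processing notes the build was mm10, and the labels' protocols name an RNeasy extraction and TruSeq RNA v2 libraries, whose reads carry no strand information. For the aligner, counting program and annotation, the sources used here give nothing. Of 48709 identifiers, 48349 matched GENCODE M21, used for symbols, positions and exon lengths, and the others held at most 0.0397% of a library's reads. Exons of other genes overlap those of Gli1, Gli3, Gas1, Hhip, Shh, Dhh, Bcl2, Ccnd1, Zic1, Zic4 and Smarcc1, so their counts are uncertain by what these share.

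In R 4.3.3, edgeR 4.0.16 was used with filterByExpr, TMM scaling and a robust quasi-likelihood model of all 12 libraries with 1 coefficient per group. Genes whose p, adjusted by Benjamini-Hochberg over all 16511 tested genes, was under 0.05 were called, and every adjusted p is from this F-test unless DESeq2 1.42.0 is named. SE is the absolute log2 fold change over the square root of F, and 95% intervals are ±1.96 SE. CPM is per M of TMM-scaled library size. The fit was tested on simulated data with 200 changed genes. No 2 libraries were identical. Groups and replicate numbers came from the titles. The 10 genes and all lists were chosen with earlier results of these data known. The text names all 10 genes, the 3 ligands, the targeted genes, up to 3 called genes per list, comparison and direction with the smallest adjusted p (or the 2 most abundant where none was called), and the 3 closest genes to each Gli gene. Not every gene picked this way is reported here. Genes named outside the rule, such as markers and Nkx2-1, were chosen after their values were seen. Other settings were RLE scaling, DESeq2, no filter, 1 CPM in at least 4 libraries, the 8 compared libraries alone, the replicate number as a block, controls of the same sex alone, BAF155cKO libraries of 1 lane alone and leaving out each library.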

Additional observations from a re-analysis of the deposited data

Results flagged for a closer look

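In 3 of the 30 sets of 4 libraries (10 genes in 3 groups), 1 library stood apart from the other 3 by more than Dixon's criterion allows, and chance gives this in about 1 of 20 sets. Boc was lower in BAF155cKO library 3, at 40.6 CPM against 48.3 to 49.7 CPM, a gap of 0.851 of the range. Boc and Sufu were lower in library 4 labelled Pax6cKO, at 26 CPM against 30.5 to 31.1 CPM and 38.4 CPM against 42 to 42.5 CPM, gaps of 0.891 and 0.881 of the range. The difference of Boc between the BAF155cKO and the libraries labelled Pax6cKO, 0.66 on the log2 scale by edgeR's quasi-likelihood test of the direct contrast (adjusted p = 0.00399), was the only one called among the 10 genes.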

How the results depend on the processing

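Of the values of the 10 genes under other settings, 415 kept direction and side of the threshold, 11 lost and 17 gained a call and 37 turned sign. In BAF155cKO against control, Gas1 and Cdon were called in every setting, and in the libraries labelled Pax6cKO all 7 called genes were. The counts of called genes moved by over 1.5 times as follows, and the cause was not tested. For BAF155cKO against control, 2246 genes became 1035 with the 8 compared libraries, 4294 with same-sex controls, 682 with lane 1 alone and 1001 to 4073 without 1 library (lowest without BAF155cKO 4, highest without BAF155cKO 2). The 6 of 10 genes became 2 with lane 1 alone, and the 4 of the wider lists 12 with same-sex controls, 2 with lane 1 alone and 2 to 10 without 1 library. For the libraries labelled Pax6cKO, 5866 genes became 1375 and 23 of the wider lists 6 with same-sex controls, and 3825 to 6601 and 13 to 24 without 1 library (lowest without control 3). In the direct contrast 711 genes became 1339 with DESeq2, 470 with lane 1 alone, 209 with lane 3 alone and 307 to 786 without 1 library. There the 1 of 10 genes became 2 with RLE scaling, DESeq2, the 1 CPM filter, the 8 compared libraries and lane 1 alone, 0 with lane 3 alone and 1 to 2 without 1 library, and the 6 of the wider lists 2 with lane 3 alone and 3 to 6 without 1 library.

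Signs turned only for genes that were not called. Against control in the BAF155cKO, Gli1 had 0.167 with same-sex controls, 0.066 with lane 1 alone and −0.22 to 0.062 without 1 library. Ptch1 had 0.007 with lane 3 alone and −0.084 to 0.023 without 1 library. Smo had −0.001 without a filter, −0.145 with same-sex controls, −0.047 with lane 3 alone and −0.052 to 0.104 without 1 library, and Zic1 had −0.046 with same-sex controls. In the libraries labelled Pax6cKO, Gli1 had −0.005 with RLE scaling or no filter, −0.006 with DESeq2, −0.002 with the replicate block or the 8 compared libraries, −0.186 with same-sex controls and −0.124 to 0.087 without 1 library. In the direct contrast Gli1 had 0.061 with lane 1 alone, Hhip 0.027 and Gas1 −0.06 with lane 3 alone, and Zic4 −0.024 without a filter, −0.001 with the 1 CPM filter and −0.311 with lane 3 alone. Without 1 library they had −0.223 to 0.087, −0.088 to 0.058, −0.056 to 0.09 and −0.271 to 0.313.

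Replicate numbers do not pair the libraries: of 12 same-numbered pairs, with correlations of deviations from −0.3 to 0.459, 4 exceeded 0.1, and 2 of 12 libraries correlated best with their own number. With the replicate block 2245, 5689 and 497 genes were called in the 3 comparisons, and 6, 7 and 1 of the 10. Depth limits Hhip and the ligands most, since they rest on the fewest reads.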
